A study of Mus musculus with 3 samples.

Results

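Embryonic stem cells (ESCs) carrying an ATRX knockout were compared here with ESCs carrying a DAXX knockout, 1 library of polyadenylated RNA on each side. These are 2 of the 3 libraries of the study, and the third, from wildtype cells, is given beside them as a level. All 3 clones are male mouse ESCs, described as isogenic, of the background strain C57BL/6x129sV. The first clone (KO1-44) has the genotype ATRX-/-, the second (KO2-3) DAXX-/- and the third (WT26) is wildtype, and both knockouts were made by CRISPR targeting. The cells grew in serum with leukaemia inhibitory factor, first on irradiated feeder cells and then, over several passages, on gelatin without feeders. Each genotype is 1 clone, so a difference between the libraries cannot be told apart from a difference between clones, and the sources used here do not give where the edit lies in each gene. Genes were taken as members when they reached 1 CPM (1 read per 1000000 of the scaled library size) in either knockout library, which 12991 of 24006 gene symbols did.

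ATRX is a chromatin remodeller of the SNF2 type, encoded on the X chromosome, and DAXX is a histone chaperone that binds the histone variant H3.3. The proteins form a complex that places H3.3 at telomeres, pericentric repeats and retroelements, where it is tied to histone H3 lysine 9 methylation and silencing. Each protein also has partners of its own: DAXX is bound by PML bodies and by several transcription factors, and ATRX recognises methylated histone tails through its own reader domain. In ESCs the best known effect of losing either protein is expression of intracisternal A particle (IAP) retroviruses. A direct comparison of both knockouts shows where the clones part, rather than what each has apart from wildtype.

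The ATRX knockout library had 14097738 aligned reads and the DAXX knockout library 11336399, so a gene at 1 CPM rests on about 13.8 reads in the former and 10.9 in the latter. With 1 library a side there are 0 residual degrees of freedom, no test of genotype exists and no p-value is given. The rule for a call, higher or lower, was that the whole 95% exact (Clopper-Pearson) interval of its ratio, ATRX knockout over DAXX knockout, lie beyond 2-fold. That interval covers counting error only, and PCR copies are not independent molecules. Values in parentheses after a log2 ratio are this interval. It had a median width of 1.82 on the log2 scale for genes with 40 to 60 reads over both libraries and 0.37 for genes with 900 to 1100 reads. Both libraries held the markers of pluripotent cells, with 15917 and 17781 reads of Pou5f1 and 5434 and 7540 reads of Nanog in the DAXX and ATRX knockout.

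Of the 12991 genes, 100 were called higher in the ATRX knockout (0.77%) and 47 lower (0.362%), together 147 genes (1.13%). Over all 12991 genes 84.3% were inside 1.5-fold and the median log2 ratio was 0.003. By the point estimate alone, 567 genes were beyond 2-fold upward and 260 downward. Of the 100 called higher, 36 reached 1 CPM in the ATRX knockout only, and of the 47 called lower, 9 in the DAXX knockout only; such genes passed the limit through the library where they are high. Among the named genes, those called higher this way included Creb5, Clic6, Vat1l, Gata4, Gata6, Cubn, Sct, Col6a2, Uba1y, Dlk1 and Dll1. Dppa3 and Rhox5 were called lower this way. The shares of all genes, 0.77% and 0.362%, are the background for the counts called in each list. Just inside the expression limit was AU041133, with 11 reads in the DAXX and 10 in the ATRX knockout. Just outside it was Zfp608, with 5 and 13.

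**Figure D1:**
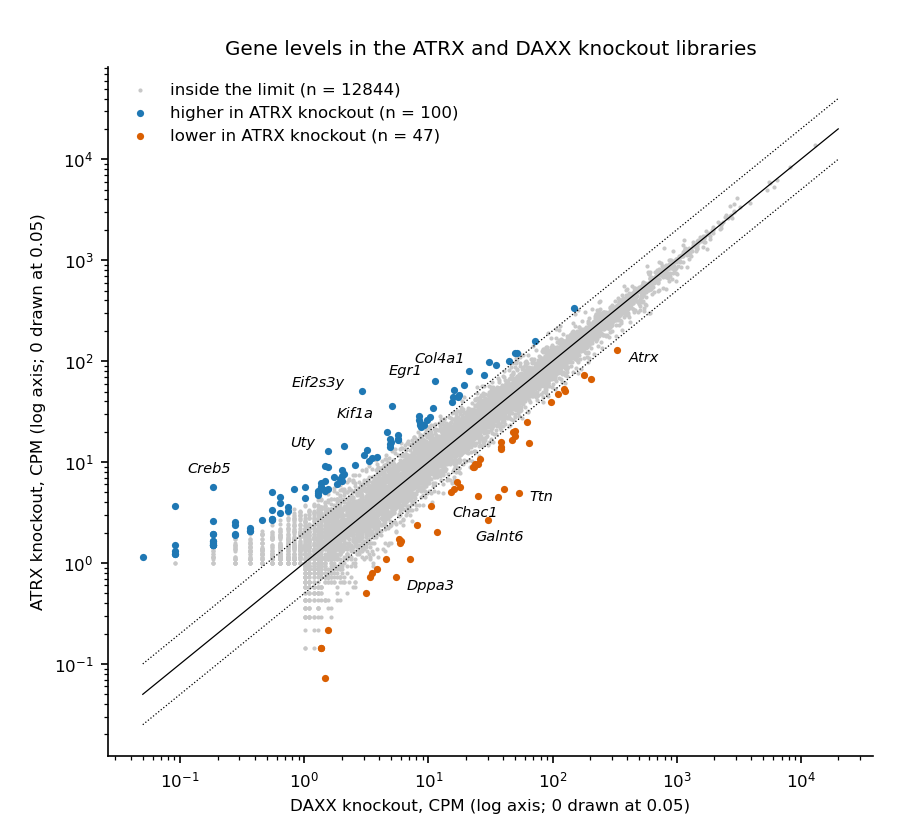
Each point is a gene, with its CPM in the DAXX knockout on the horizontal axis and in the ATRX knockout on the vertical axis, both logarithmic. Blue and orange points are the 100 genes called higher and the 47 called lower in the ATRX knockout, grey points are the other tested genes, the solid line marks equal levels and the dotted lines 2-fold; Atrx lies below the lower dotted line.

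Atrx itself was called lower in the ATRX knockout. It had 4582 reads in wildtype cells, 3576 with DAXX knocked out and 1800 with ATRX knocked out, a log2 ratio between the knockouts of -1.33 (-1.42 to -1.25), so transcript remained in the library labelled as its knockout. Its longest transcript of the 12 counted, with 3433, 2776 and 1377 reads, gave -1.35 (-1.45 to -1.26). Daxx had 1125 reads in wildtype cells, 623 with DAXX knocked out and 972 with ATRX knocked out, or 0.30 (0.15 to 0.45) between both, which was not called. Atrx and Daxx each had their lowest level in their own knockout, and RNA left after a CRISPR edit does not measure the protein. Among 17 tested genes of the H3.3 pathway and other partners, Atrx was the 1 gene called, where 0.362% of all genes were called lower. The list median was -0.01, a sign that turned positive (0.02 at most) with total-count scaling or thinned counts. The H3.3 genes H3f3a and H3f3b stood at 0.01 (-0.03 to 0.04) and -0.01 (-0.05 to 0.04), and the H3.3 chaperone subunit Ubn2 at -0.48 (-0.61 to -0.35).

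Genes called higher in the ATRX knockout included transcription factors, transport proteins and genes of the Y chromosome. Creb5, a transcription factor of the CREB family, had 4 reads in wildtype cells, 2 with DAXX knocked out and 78 with ATRX knocked out, a log2 ratio of 4.94 (3.04 to 8.01). It was near 0 in both other libraries, so its height belongs to the ATRX knockout. Kif1a, a kinesin motor of axonal transport, had 153, 56 and 499 reads in the same order and a ratio of 2.81 (2.41 to 3.24). Slc11a1, a metal transporter of phagosomes, had 47, 23 and 202 reads and a ratio of 2.79 (2.17 to 3.48). Clic6, of the chloride intracellular channel family, had 21, 6 and 70 reads and stood at 3.20 (2.01 to 4.70), and Fam159b had 3, 17 and 125 reads and stood at 2.54 (1.80 to 3.36). For these 5 genes the ATRX knockout held the largest number of reads and wildtype did not reach it. Cr1l and Vat1l were both far lower in the DAXX knockout than in wildtype. Cr1l, a regulator of complement, had 415 reads in wildtype cells, 16 with DAXX knocked out and 128 with ATRX knocked out, a ratio of 2.66 (1.90 to 3.51) between the knockouts. Vat1l had 26, 2 and 36 reads, a ratio of 3.83 (1.87 to 6.93).

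The genes called lower in the ATRX knockout included Ttn, Galnt6 and Nkx6-3, which both other libraries expressed. Ttn, which encodes the giant sarcomere protein titin, had 417 reads in wildtype cells, 590 with DAXX knocked out and 69 with ATRX knocked out, a log2 ratio of -3.44 (-3.82 to -3.08). Galnt6, an enzyme that starts mucin-type O-glycans, had 399, 329 and 37 reads and a ratio of -3.49, its interval drawn in the plot of named genes. Nkx6-3, a homeobox factor of the stomach, had 218, 399 and 63 reads, and stood at -3.01 (-3.41 to -2.62). These 3 genes were lowest in the ATRX knockout by a wide margin in reads. Enpp3, an ectonucleotide pyrophosphatase, had 366, 444 and 75 reads and a ratio of -2.91 (-3.28 to -2.55). Lgals9, a galectin, had 100, 129 and 28 reads and stood at -2.55 (-3.19 to -1.95). Il3ra, the alpha chain of the interleukin 3 receptor, had 67, 78 and 15 reads, a ratio of -2.72 (-3.63 to -1.91). Il3ra was listed with globin genes as a known target of ATRX, and of the 16 names listed 3 were tested. The others were Nme4 at 0.37 (0.14 to 0.61) and Csf2ra at -0.00 (-1.06 to 1.08), which gave a median of -0.00 whose sign changed under 4 of the alternative settings.

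**Figure D2:**
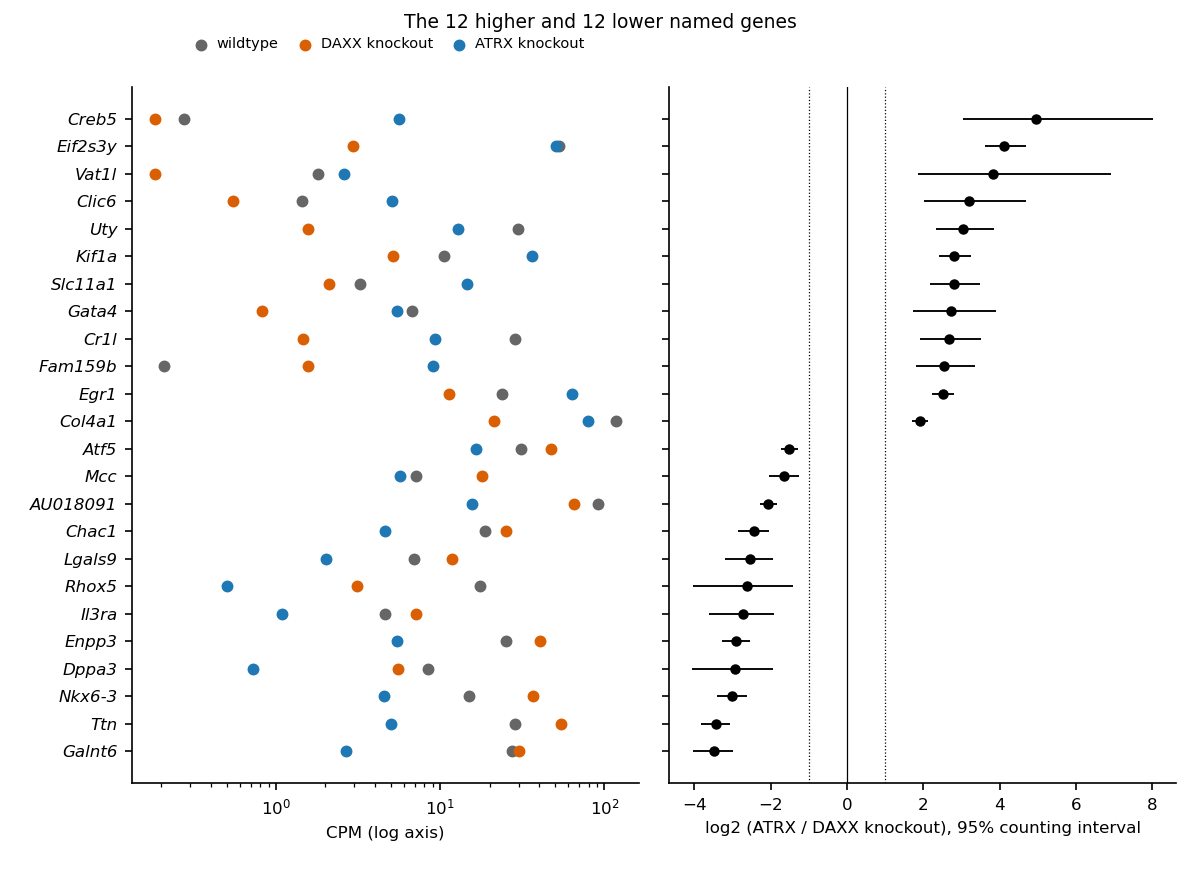
The left panel gives the CPM of the 12 higher and 12 lower named genes in wildtype (grey), the DAXX knockout (orange) and the ATRX knockout (blue) on a logarithmic axis. The right panel gives the log2 ratio of the ATRX knockout over the DAXX knockout with its 95% counting interval, and the dotted lines mark 2-fold; all 24 intervals lie beyond them.

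Genes of the amino acid response had the lowest median of the lists with at least 10 tested members. In this list 4 genes were called lower in the ATRX knockout, where 0.362% of all genes were. ATF4 is a transcription factor whose translation rises when amino acids run short or proteins misfold, and its targets make, import and charge amino acids. Of 29 genes listed, 28 were tested, those called lower were Chac1, Atf5, Trib3 and Nupr1, 0 were called higher, and 28 had a ratio below 0, against 6424 of the 12991 genes tested. The list median was -0.65, against 0.003 over all genes, and lay between -0.66 and -0.62 under the alternative settings. The summed level was 4584 CPM in wildtype cells, 4989 with DAXX knocked out and 3376 with ATRX knocked out. The 250 bases before the start sites of the 4 called genes are given here because these members were called together; they come from the RefSeq promoter table for GRCm38.p6, 5′ to 3′ on the gene's strand, with matches to TGATGNAA, the composite element bound by ATF4 with C/EBP proteins, in capitals on either strand.
Chac1, chr2:119350992-119351241, plus strand: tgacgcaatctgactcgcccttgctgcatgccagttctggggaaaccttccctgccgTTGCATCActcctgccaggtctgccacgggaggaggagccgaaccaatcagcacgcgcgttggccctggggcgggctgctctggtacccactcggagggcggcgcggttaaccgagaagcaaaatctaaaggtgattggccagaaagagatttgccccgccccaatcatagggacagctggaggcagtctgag
Nupr1, chr7:126625471-126625720, minus strand: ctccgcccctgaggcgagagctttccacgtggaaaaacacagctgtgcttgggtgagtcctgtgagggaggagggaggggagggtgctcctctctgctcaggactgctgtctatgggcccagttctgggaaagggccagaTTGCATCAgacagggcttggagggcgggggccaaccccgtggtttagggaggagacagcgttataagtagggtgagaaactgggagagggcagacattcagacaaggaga
Trib3, chr2:152344061-152344310, minus strand: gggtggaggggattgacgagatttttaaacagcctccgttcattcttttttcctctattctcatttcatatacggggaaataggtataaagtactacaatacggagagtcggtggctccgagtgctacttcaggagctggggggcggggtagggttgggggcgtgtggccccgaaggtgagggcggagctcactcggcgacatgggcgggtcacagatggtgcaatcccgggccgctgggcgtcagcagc
Atf5, chr7:44816659-44816908, minus strand: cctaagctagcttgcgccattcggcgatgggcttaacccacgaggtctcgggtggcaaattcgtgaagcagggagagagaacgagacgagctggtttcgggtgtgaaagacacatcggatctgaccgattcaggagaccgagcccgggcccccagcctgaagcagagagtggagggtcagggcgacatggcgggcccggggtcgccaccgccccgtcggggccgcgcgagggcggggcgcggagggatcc
Chac1 and Nupr1 each held 1 match, written on the opposite strand (TTGCATCA), and the windows of Trib3 and Atf5 held 0, which says only that these letters are not in those windows. The table has 2 promoters for Atf5, and here and in the counts the first listed of each gene was used. Over the list, 7 of the 23 tested members with a promoter in the table held a match (30.4%), against 954 of all 27025 promoters of the same length (3.53%) and 199 of 10344 promoters of tested genes (1.92%). The 7 were Chac1, Nupr1, Asns, Pck2, Slc7a11, Atf3 and Gars, and a match is a description of the sequence, not a bound site. Because the list was drawn up around ATF4 targets, a higher share than in all promoters says nothing about the knockouts.

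Chac1, which degrades glutathione, had 271 reads in wildtype cells, 273 with DAXX knocked out and 64 with ATRX knocked out, a log2 ratio of -2.44 (-2.85 to -2.04). Atf5, a transcription factor related to ATF4, had 450, 518 and 230 reads and a ratio of -1.51 (-1.74 to -1.29). Trib3, a pseudokinase that feeds back on ATF4, had 666, 548 and 253 reads, -1.46 (-1.68 to -1.24). In each of these genes the ATRX knockout was the low library and the DAXX knockout lay near wildtype or above it. Nupr1, a small stress-induced nuclear protein, had 339, 253 and 124 reads, -1.37 (-1.69 to -1.06), and left the call when counts were thinned to the smallest library. Atf4 itself had 4131, 3570 and 2477 reads, -0.87 (-0.94 to -0.80). Slc7a3, an importer of cationic amino acids, stood at -1.07 (-1.18 to -0.96), Cth, of cysteine synthesis, at -1.01 (-1.16 to -0.87), and Mthfd2, of mitochondrial folate metabolism, at -0.88 (-1.00 to -0.77). These 4 were close to 2-fold without passing the rule. At the other end of the list, Slc7a11, the cystine importer, stood at -0.04 (-0.15 to 0.08), Phgdh, of serine synthesis, at -0.26 (-0.33 to -0.19) and Asns, asparagine synthetase, at -0.28 (-0.35 to -0.22).

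Glycolysis genes had a median on the other side of 0. All 26 listed were tested, 23 had a ratio above 0 (6567 of 12991 over all genes), and the median was 0.41. Their summed level was 15831 CPM in wildtype cells, 17157 with DAXX knocked out and 21093 with ATRX knocked out. Slc16a3, the exporter of lactate, was the 1 member called higher, where 0.77% of all genes were. It had 870, 306 and 1001 reads in wildtype, the DAXX knockout and the ATRX knockout and a log2 ratio of 1.37 (1.18 to 1.56). Its low library was the DAXX knockout. Ldha, which makes lactate, had 12698, 8621 and 18273 reads and stood at 0.74 (0.70 to 0.78), Pfkl, the liver form of phosphofructokinase, at 0.95 (0.87 to 1.03), and Hk2, a hexokinase, at -0.06 (-0.13 to -0.00). Cholesterol synthesis genes were above 0 in 23 of 25 with 0 called and a median of 0.16, and Hmgcs1, of the early pathway, stood at 0.43 (0.35 to 0.51). Oxidative phosphorylation genes had 0 called of 38 and a median of -0.05.

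Among targets of p53, the transcription factor that answers DNA damage, and immediate early genes, which respond within minutes to growth factors, few members were called, all of them higher, where 0.77% of all genes were. Of 28 tested p53 targets 22 were above 0, with 1 called and a median of 0.44. The called member was Plk2, a polo-like kinase, with 312 reads in wildtype cells, 174 with DAXX knocked out and 717 with ATRX knocked out, 1.70 (1.46 to 1.95). Pmaip1, a BH3-only trigger of apoptosis, stood at 1.05 (0.94 to 1.15) and Cdkn1a, the cell cycle inhibitor p21, at 0.98 (0.82 to 1.14), while Trp53 itself stood at -0.10 (-0.16 to -0.05) and Bax at -0.15 (-0.23 to -0.06). Of 26 tested immediate early genes 21 were above 0, with 2 called and a median of 0.45. Egr1, a zinc finger factor of this class, had 346, 123 and 885 reads and a ratio of 2.50 (2.23 to 2.79), and Fos had 150, 92 and 394 reads and a ratio of 1.76 (1.43 to 2.10). In both the order was DAXX knockout, wildtype, ATRX knockout. Egr1 is also on the list of feedback genes of FGF-ERK signalling, where it was the 1 gene called of 18. That list's median was -0.21, with the ERK phosphatase Dusp6 at -0.17 (-0.33 to -0.01) and the inhibitor Spry4 at -0.51 (-0.63 to -0.39).

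**Figure D3:**
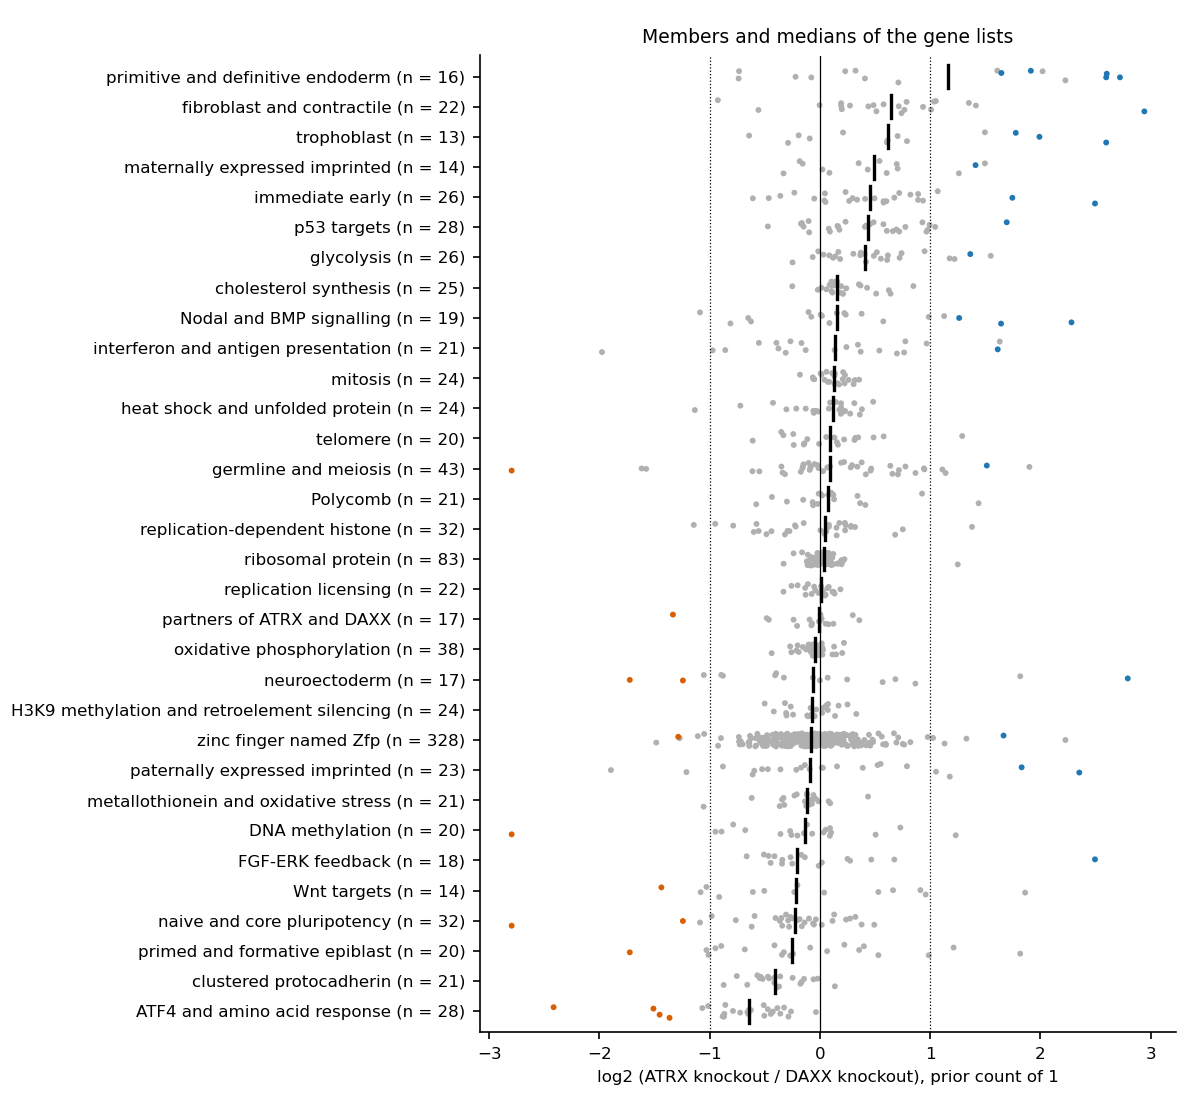
Each row is a gene list with at least 10 tested members (n in brackets), ordered by its median, which is the black bar; each point is a member's log2 ratio of the ATRX knockout over the DAXX knockout, computed with a prior count of 1. Blue and orange points are members called higher and lower, and dotted lines mark 2-fold; the amino acid response list lies lowest, at -0.65, and the endoderm list highest, at 1.16.

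Markers of primitive and definitive endoderm held 5 genes called higher in the ATRX knockout, 3 of which reached 1 CPM in that library only. Over all genes tested 0.77% were called higher. Of 30 listed genes 16 were tested, and those called were the transcription factors Gata4 and Gata6, the basement membrane collagens Col4a1 and Col4a2, and the endocytic receptor Cubn. Of the 16 tested, 9 reached 1 CPM in both knockouts, 6 in the ATRX knockout only and 1 in the DAXX knockout only; Gata4, Gata6 and Cubn are among the 6, so they had to differ and the count and median carry that choice. Gata4 had 97 reads in wildtype cells, 9 with DAXX knocked out and 75 with ATRX knocked out, a log2 ratio of 2.72 (1.72 to 3.90). Gata6 had 38, 2 and 21 reads, 3.05 (1.02 to 6.19), and Cubn had 213, 2 and 23 reads, 3.18 (1.16 to 6.31), a call that was lost with thinned counts. The DAXX knockout was the low library in all 3 genes, and in Cubn the ATRX knockout was far below wildtype too. Col4a1 had 1702, 231 and 1107 reads, 1.92 (1.71 to 2.13), and Col4a2 had 740, 118 and 471 reads, 1.65 (1.36 to 1.96). Other basement membrane genes differed less, with Sparc at 0.41 (0.32 to 0.50), Lamb1 at 0.32 (0.21 to 0.44), Lama1 at 0.23 (0.06 to 0.41) and Lamc1 at -0.22 (-0.26 to -0.18). Lrp2, the partner receptor of Cubn, stood at -0.74 (-0.92 to -0.56) and Sox7 at -0.79 (-2.06 to 0.43). The list median of 1.16 was 0.41 among members at 5 CPM or more, and it describes members that passed the limit in one library or the other, not all 30. In a bulk library fewer cells of a type and less RNA per cell cannot be told apart. Summed over all listed genes, endoderm markers were at 1742 CPM in wildtype cells, 1573 with DAXX knocked out and 1740 with ATRX knocked out, a sum that is dominated by Lamc1, Sparc and Apoe.

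Markers of 2 other cell types that a culture of ESCs could hold also had medians above 0. As a background, 0.77% of all genes were called higher and 0.362% lower. Of 13 tested trophoblast markers 3 were called higher, 9 were above 0 and the median was 0.62, with summed levels of 282, 195 and 218 CPM in wildtype, the DAXX knockout and the ATRX knockout. Krt19, a keratin, had 219, 15 and 79 reads, 2.05 (1.25 to 2.96), the placental homeobox gene Esx1 had 98, 21 and 94 reads, 1.82 (1.13 to 2.58), and Sct, which encodes secretin, had 11, 2 and 21 reads, 3.05 (1.02 to 6.19). Esx1 and Sct lost their calls when the most abundant transcript was taken for each gene, Sct also with thinned counts, and Sct reached 1 CPM in the ATRX knockout only. Defining trophoblast factors were at or near 0, with 3 and 13 reads of Cdx2, 1 and 0 of Elf5 and 0 and 0 of Gata3 in the DAXX and ATRX knockout. Of 22 tested fibroblast and contractile markers, which would mark feeder cells left behind, 1 was called higher, 19 were above 0 and the median was 0.65, with summed levels of 1670, 1893 and 1969 CPM. The called gene was Col6a2, with 18, 2 and 27 reads, 3.41 (1.42 to 6.53). It reached 1 CPM in the ATRX knockout only and lost its call when the most abundant transcript was taken for each gene. Col1a1 had 73, 14 and 31 reads, 0.80 (-0.15 to 1.83), while Col3a1, Postn, Lum and Dcn had 0 reads in both knockouts, and Fn1 stood at -0.00 (-0.03 to 0.03). What part the number of such cells has in the endoderm values was not tested. Primitive streak and mesoderm markers had 0 called of 7 tested, with Bmp4 at -0.81 (-1.01 to -0.62) and a median of 0.13 that turned negative at 5 CPM or more. Neuroectoderm markers had 1 called higher and 2 lower of 17, and a median of -0.06 that turned positive with no filter on low counts. The higher one was Dll1, a Notch ligand with 9, 3 and 33 reads, 3.12 (1.44 to 5.47). Dll1 reached 1 CPM in the ATRX knockout only. The lower ones, Gbx2 and Otx2, belong to the pluripotency lists too.

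Pluripotency genes had medians a little below 0. Of 32 naive and core pluripotency genes 24 were below 0, 2 were called lower (0.362% of all genes were) and the median was -0.22. Dppa3, a maternal factor that shields DNA methylation in the early embryo, had 123 reads in wildtype cells, 60 with DAXX knocked out and 10 with ATRX knocked out, a log2 ratio of -2.93 (-4.06 to -1.95). Dppa3 reached 1 CPM in the DAXX knockout only. Gbx2, a homeobox target of STAT3, had 1072, 1210 and 648 reads, -1.24 (-1.38 to -1.10). The core factors stayed close to equal, with Pou5f1 at -0.18 (-0.21 to -0.15), Sox2 at -0.04 (-0.10 to 0.03), Nanog at 0.13 (0.08 to 0.18) and Klf4 at 0.32 (0.26 to 0.38). The orphan receptor gene Nr0b1 stood at -0.98 (-1.12 to -0.85) and the growth factor gene Gdf3 at -1.09 (-1.24 to -0.93). Of 20 tested genes of the primed and formative epiblast 1 was called lower, 12 were below 0 and the median was -0.26. This was Otx2, with 273, 88 and 33 reads, -1.76 (-2.38 to -1.17). Otx2 was lower in both knockouts than in wildtype, and lower again in the ATRX knockout.

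Genes of DNA methylation had 1 called lower of 20, where 0.362% of all genes were, and a median of -0.13. The called gene was Dppa3, which reached 1 CPM in the DAXX knockout only. The enzymes that oxidise methylated cytosine stood at -0.68 (-0.72 to -0.63) for Tet1 and -0.89 (-0.99 to -0.80) for Tet2. Dnmt3b, a de novo methyltransferase, stood at -0.95 (-1.10 to -0.80), and its cofactor Dnmt3l, with 905, 195 and 411 reads in wildtype, the DAXX knockout and the ATRX knockout, at 0.73 (0.48 to 0.99). Factors of H3K9 methylation and retroelement silencing had 0 called of 24 and a median of -0.07. Trim28, the corepressor that zinc finger proteins bring to retroelements, had 24359, 18986 and 18023 reads, -0.42 (-0.45 to -0.39), and the SUMO gene Sumo2 stood at 0.03 (-0.02 to 0.08). Polycomb genes had 0 called of 21 and a median of 0.08, with Jarid2 at -0.43 (-0.49 to -0.38) and Rbbp4 at -0.01 (-0.06 to 0.04). Telomere genes had 0 called of 20 and a median of 0.10, with the telomerase proteins Dkc1 and Nhp2 at -0.15 (-0.21 to -0.08) and -0.14 (-0.22 to -0.06).

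Signals of the TGF-beta family differed gene by gene. Of 19 tested Nodal and BMP genes 3 were called higher, where 0.77% of all genes were, and the median was 0.15. Lefty1, a secreted inhibitor of Nodal, had 736 reads in wildtype cells, 547 with DAXX knocked out and 1667 with ATRX knocked out, 1.27 (1.12 to 1.41). Its neighbour in function Lefty2 had 831, 569 and 1432 reads, 0.99 (0.85 to 1.13), just inside the limit. The ligand gene Bmp7 had 117, 91 and 363 reads, 1.65 (1.32 to 2.00). Nodal itself stood at 0.22 (0.08 to 0.37). The ligand genes Bmp4 and Gdf3 had the negative ratios given above. Wnt targets had 1 called lower of 14, where 0.362% of all genes were, and a median of -0.22. It was Notum, a secreted enzyme that inactivates Wnt proteins, with 302, 418 and 195 reads, -1.44 (-1.70 to -1.19). Interferon and antigen presentation genes had 1 called higher of 21 and a median of 0.13. The list was split, with 11 above 0 and 10 below, between -1.98 and 1.63 with a prior count of 1. Its summed level was 492 CPM in wildtype cells, 462 with DAXX knocked out and 453 with ATRX knocked out. Tap1, a peptide transporter, had 50, 36 and 142 reads, 1.64 (1.10 to 2.21), a call lost with the most abundant transcript, and B2m, the light chain of the class I molecule, stood at 0.98 (0.61 to 1.35).

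Imprinted growth genes were among those called. Of 23 tested paternally expressed genes 2 were called higher, where 0.77% of all genes were, and the median was -0.09. Igf2, a fetal growth factor, had 68 reads in wildtype cells, 14 with DAXX knocked out and 66 with ATRX knocked out, 1.89 (1.05 to 2.84), and Dlk1, a Notch-like ligand, had 27, 5 and 37 reads, 2.55 (1.19 to 4.25). Both had wildtype and the ATRX knockout at like numbers of reads and the DAXX knockout below. When the most abundant transcript was taken for each gene, Igf2 lost its call and Dlk1 was not tested. Dlk1 reached 1 CPM in the ATRX knockout only. Peg3 stood at -0.88 (-0.97 to -0.79) and Sfmbt2 at -1.24 (-1.87 to -0.62). Of 14 tested maternally expressed genes 1 was called higher, 11 were above 0 and the median was 0.49, or 0.22 at 5 CPM or more. Cdkn1c, the cell cycle inhibitor p57, had 152, 107 and 363 reads, 1.42 (1.11 to 1.74). Grb10 had 4055, 7800 and 13369 reads, 0.43 (0.39 to 0.48), highest in the ATRX knockout. Meg3 had 0 reads in both knockouts and Rian 0 in the DAXX and 6 in the ATRX knockout, so neither was tested.

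Germline genes had 1 called higher and 1 lower of 43, and a median of 0.09 that turned to -0.01 when the most abundant transcript was taken for each gene. For this and the next 2 lists, the shares over all genes were 0.77% called higher and 0.362% lower. Tex15, a germ cell factor of transposon silencing, had 185, 93 and 339 reads in wildtype, the DAXX knockout and the ATRX knockout, 1.52 (1.19 to 1.87), and the lower gene was Dppa3. Of 26 listed X-linked Rhox and cancer-testis genes 3 were tested, the others being near 0 in both knockouts. The homeobox gene Rhox5 had 253, 34 and 7 reads, -2.62 (-4.04 to -1.43), and was not called when the most abundant transcript was taken for each gene. Rhox5 and Dppa3 each reached 1 CPM in the DAXX knockout only. Mageb16 stood at -0.56 (-1.15 to 0.02) and Tex11 at 0.96 (0.54 to 1.39). The list median of -0.55 turned to 0.20 at 5 CPM or more. Genes of the 2-cell stage had 1 called lower of 8 tested, AU018091, with 1331, 711 and 216 reads, -2.06 (-2.29 to -1.84). Their median of 0.41 had the opposite sign and turned to -0.48 at 5 CPM or more.

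Some genes of the Y chromosome, but not all, separated the knockout clones. Of 4 tested Y-linked genes 3 were called higher in the ATRX knockout, where 0.77% of all genes were. Eif2s3y, a translation initiation factor subunit with a copy on the X, had 768 reads in wildtype cells, 32 with DAXX knocked out and 705 with ATRX knocked out, a log2 ratio of 4.12 (3.61 to 4.68). The demethylase-family gene Uty had 434, 17 and 178 reads, 3.05 (2.33 to 3.86), and Uba1y, a ubiquitin-activating enzyme, 60, 1 and 21 reads, 4.05 (1.41 to 9.42), and both lost the call when the most abundant transcript was taken for each gene. Uba1y reached 1 CPM in the ATRX knockout only. Kdm5d had 88, 49 and 35 reads, -0.83 (-1.50 to -0.17), and Ddx3y 775, 0 and 0. The list median was 3.10. Summed Y-linked levels were 147 CPM in wildtype cells, 9.06 with DAXX knocked out and 67.9 with ATRX knocked out. Which of these values come from cells that had lost the Y chromosome was not tested, and genes with a near-identical X copy can exchange reads. X inactivation transcripts had 0 called of 5 and a median of 0.02, which turned to -0.02 with thinned counts, and Rlim stood at 0.02 (-0.11 to 0.15).

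Retroelement ratios were mostly below 0, with the largest difference in elements related to murine leukaemia virus. Among 69 repeat consensus sequences with at least 50 reads over both knockouts, 0 were called higher (0%) and 3 lower (4.35%), while 67 had a ratio below 0. Murine leukaemia virus-like sequences together had 533 reads in wildtype cells, 1834 with DAXX knocked out and 609 with ATRX knocked out, -1.93 (-2.07 to -1.80). Nearly all of these were on RLTR4I_MM, the internal part of such a provirus, with 505, 1788 and 586 reads, -1.95 (-2.09 to -1.82). The ATRX knockout lay near wildtype there and the DAXX knockout above both. IAP sequences had 3549, 9500 and 8181 reads, -0.56 (-0.60 to -0.52), high in both knockouts, with the DAXX knockout above by less than 2-fold. ETn and MusD elements had 61323, 70486 and 77975 reads, -0.20 (-0.21 to -0.18), and MERVL 2297, 1430 and 1434 reads, -0.34 (-0.45 to -0.23).

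LINE-1 sequences, the autonomous non-retroviral elements of the genome, had 26352 reads in wildtype cells, 25082 with DAXX knocked out and 17653 with ATRX knocked out, a log2 ratio of -0.85 (-0.88 to -0.82). All 30 LINE-1 sequences with at least 50 reads were below 0, between -1.15 and -0.10 with a prior count of 1, and 2 were called. These were L1MdTf_I, with 3476, 3384 and 2009 reads, -1.09 (-1.18 to -1.01), and L1MdTf_II, with 3270, 3347 and 2003 reads, -1.08 (-1.16 to -1.00). Both intervals end very close to 2-fold, so a small change of scaling could undo these calls. Single repeat sequences were not checked under the other scalings. By subfamily, the Tf group stood at -1.03 (-1.08 to -0.98), the Gf group at -0.77 (-0.84 to -0.70), the A group at -0.76 (-0.82 to -0.71), the N group, of 1 sequence, at -0.79 (-0.98 to -0.60), the F group at -0.73 (-0.82 to -0.64) and the V group at -0.47 (-0.72 to -0.22). Outside these groups, L1MdFanc_II had the lowest ratio of the 30 sequences, -1.16 (-1.51 to -0.83), and L1MdFanc_I stood at -0.41 (-0.70 to -0.12). Against wildtype the Tf group was at -0.58 in the ATRX knockout and at 0.45 in the other, on opposite sides. The remaining classes were other ERV2 at -0.68 (-0.84 to -0.52), other ERV1 at -0.67 (-0.84 to -0.50), satellites at -0.55 (-0.92 to -0.19), SINEs at -0.50 (-0.67 to -0.33), other ERV3 at -0.41 (-0.50 to -0.31) and all other repeats, with 62 and 51 reads in the DAXX and ATRX knockout, at -0.62 (-1.19 to -0.07). Repeats together took 0.703% of aligned reads in wildtype cells, 0.991% with DAXX knocked out and 0.776% with ATRX knocked out. Reads of transcribed genes that contain a repeat can fall on its consensus, and the sources used here do not say how such reads were placed.

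**Figure D4:**
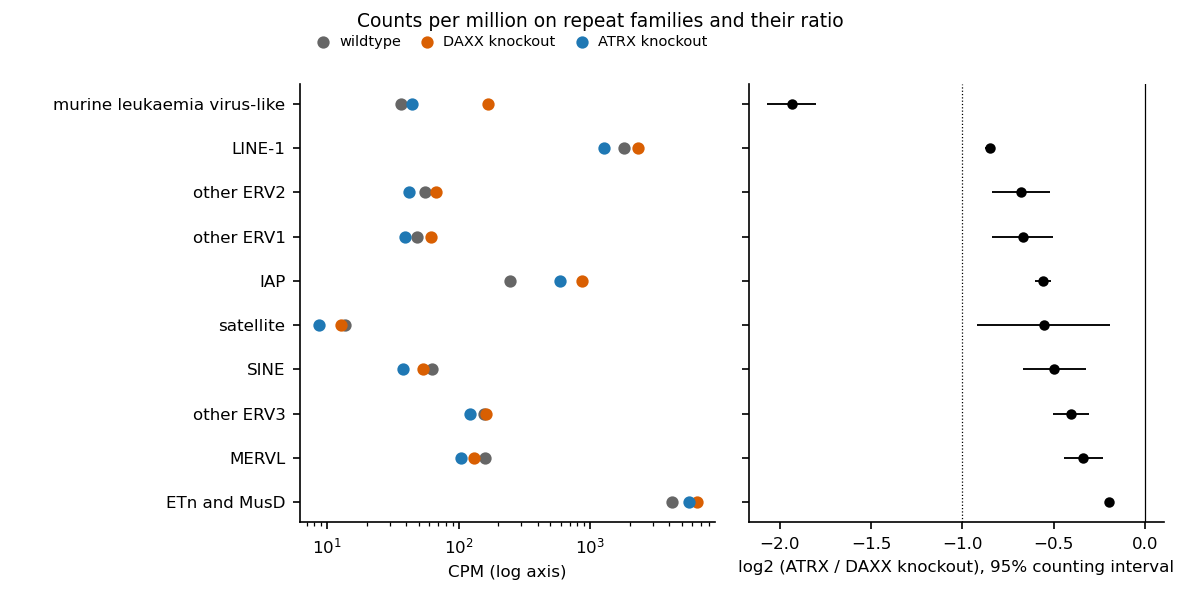
The left panel gives the CPM of each repeat family in wildtype (grey), the DAXX knockout (orange) and the ATRX knockout (blue) on a logarithmic axis. The right panel gives the log2 ratio of the ATRX knockout over the DAXX knockout with its 95% counting interval; all 10 families drawn (the small rest of other repeats is left out) lie below 0, and murine leukaemia virus-like elements alone pass the dotted 2-fold line.

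Zinc finger genes named Zfp had 1 called higher and 1 lower of 328 tested, and a median of -0.08. Over all genes 0.77% were called higher and 0.362% lower. Zfp600 had 2044 reads in wildtype cells, 338 with DAXX knocked out and 1363 with ATRX knocked out, 1.67 (1.50 to 1.85). It lies on chromosome 4 in a block of zinc finger genes from 145510759 to 147809788 (GRCm38) that was examined after these values were seen. Of 13 tested genes there 5 were called higher in the ATRX knockout, 12 were above 0 and the median was 0.69. The others called were Rex2, with 1279, 210 and 799 reads, 1.59 (1.36 to 1.81), Gm13242 at 1.24 (1.10 to 1.38), Gm13247 at 1.36 (1.11 to 1.62) and 2610305D13Rik at 1.38 (1.21 to 1.55). All 5 had their fewest reads in the DAXX knockout. Genes of this block are near-identical copies that can share reads, so the value of any single one is uncertain. The lower gene, Zfp532, had 1640, 1953 and 1016 reads, -1.29 (-1.40 to -1.18), and lies on chromosome 18.

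Chromosome 18 differed as a whole. Of its 334 tested genes 259 (77.5%) had a ratio below 0, against 49.4% of all genes, and its median log2 ratio was -0.29, which is 0.82 on the linear scale. The medians of the other 19 chromosomes, the X included and the Y left out, lay between -0.03 and 0.05. Along chromosome 18, 29 windows of 50 neighbouring genes had medians between -0.38 and -0.24, while 1179 windows elsewhere lay between -0.28 and 0.18 and 1 of them was below the highest of chromosome 18. The windows overlap, each starting 10 genes after the one before, so they are not separate observations. Against wildtype the chromosome's median was 0.08 in the ATRX knockout and 0.33 in the other. Chromosome number was not measured in these data. Genes of chromosome 18 carry this shift in their ratios. Relative to the chromosome's median, Egr1 stood at 2.78 and Gata6 at 2.88, both still called. Zfp532 stood at -1.00 and Mcc, named for mutations in colorectal cancer, with 103, 196 and 79 reads and -1.65 (-2.05 to -1.27) before, at -1.35; neither was then called, nor was Mppe1 at -1.40, chosen after its values were seen, since the nearer bounds of their intervals (-0.89, -0.98 and -0.75) lay inside 2-fold. Clustered protocadherins, cell adhesion genes that all lie on this chromosome, had 0 called of 21, 20 below 0 and a median of -0.41, which was -0.12 relative to the chromosome.

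**Figure D5:**
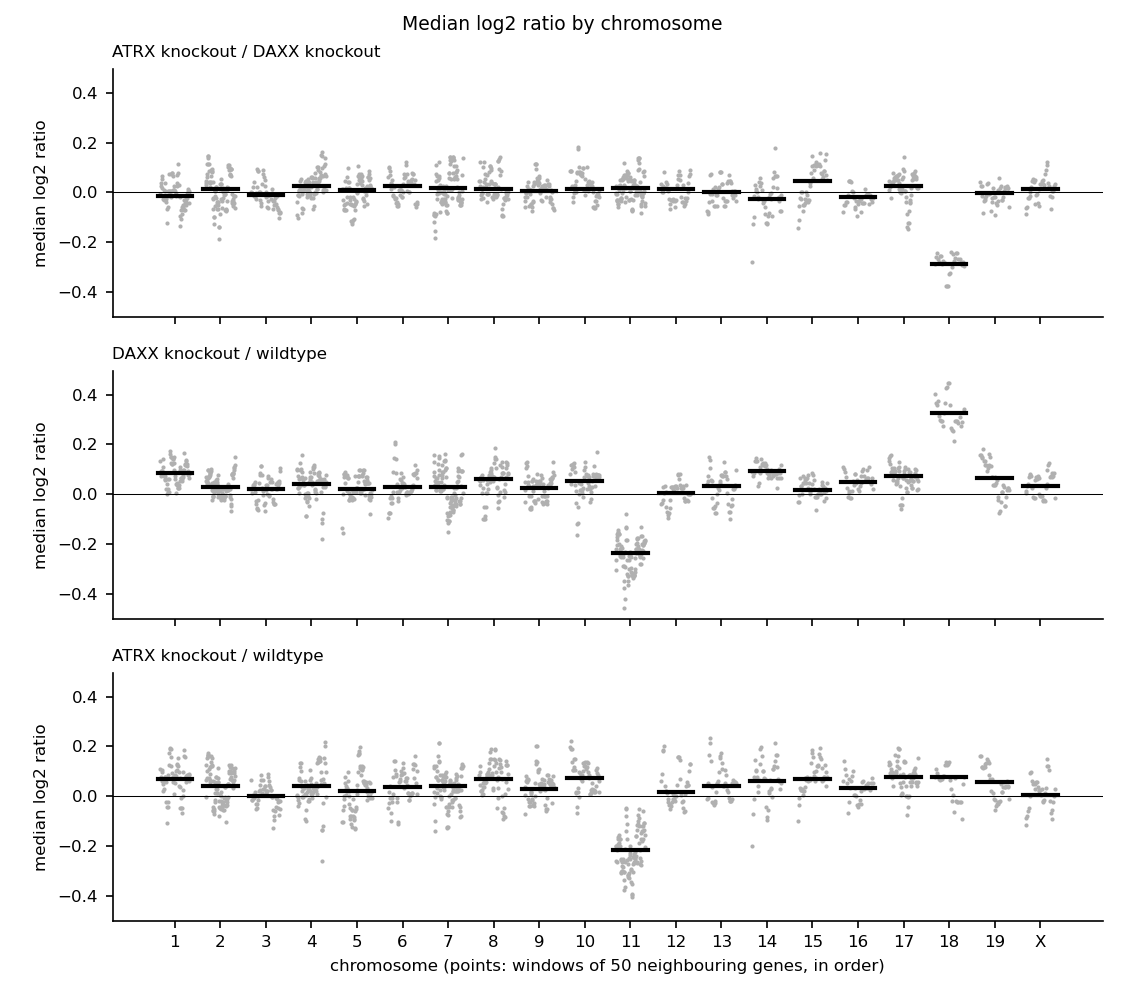
Black bars are the median log2 ratio of the tested genes of each chromosome and grey points the medians of windows of 50 neighbouring genes in order, for the ATRX knockout over the DAXX knockout (top), the DAXX knockout over wildtype (middle) and the ATRX knockout over wildtype (bottom). Chromosome 18 stands at -0.29 in the top panel and 0.33 in the middle one, and chromosome 11 at -0.24 and -0.22 in the lower panels but 0.02 in the top one.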

How the data were processed

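Per the labels' protocols, polyadenylated RNA of 3 clones of mouse ESCs was made into TruSeq libraries. The authors deposited 1 table of raw read counts per library, not normalized, in the layout of the idxstats command, as reads aligned per transcript or repeat sequence. The tools were Bowtie 1.1.2 and SAMtools with build GRCm38.p4, per the submitters' processing notes. The sources used here give no alignment settings, annotation release, use of strand or placing of reads with several positions, so a gene cannot be told apart from an antisense partner.

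Counts of the 48843 transcripts were summed by symbol to 24006 genes, and 1564 repeat consensus sequences were kept apart. Library sizes were scaled by TMM over the 3 libraries (edgeR 4.0.16, R 4.3.3), with factors of 1.04 (wildtype), 0.973 (DAXX knockout) and 0.990 (ATRX knockout), and repeats used the same sizes. Between 77.0% and 78.9% of reads were aligned. Intervals were computed with SciPy 1.17.1. List medians used a prior count of 1. Positions come from GENCODE M21 (GRCm38) and promoters from the RefSeq table for GRCm38.p6. The scripts were tested on simulated counts.

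The members and the 39 gene lists were chosen with earlier results of these data known. Genes were named by rule: Atrx and Daxx, the 12 higher and 12 lower called genes whose interval bound lies farthest from 0 (predicted genes left out), up to 6 called members of a list in each direction, and up to 2 of the most abundant members where none was called. Other list members given as examples were chosen after their values were seen, and a few list members are not reported here. Alternatives were other scalings (DESeq2 1.42.0 size factors, total counts, TMM over the knockouts alone), other filters, the most abundant transcript, thinned counts and the point estimate.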

Additional observations from a re-analysis of the deposited data

How the results depend on the processing

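The 100 genes called higher became 64 at 5 CPM or more, because 36 of them were not tested there, and 567 when the point estimate alone had to pass 2-fold; the 47 called lower became 260 by that rule, which drops the interval. At 5 CPM or more 38 genes were lower, and 62.7% of all calls were higher. Under the other planned settings that kept the interval, between 81 and 104 genes were higher and between 39 and 48 lower. The higher share of all calls there lay between 67.1% and 70.7%. DESeq2 size factors kept 96 of the 100 and all 47. The most abundant transcript kept 72 of the 100 and 36 of the 47, and thinned counts 82 and 37. Without chromosomes 18 and Y, an alternative chosen after seeing the data, 93 were higher and 44 lower. Relative to the chromosome median, also chosen after seeing the data, the counts were 95 and 47. These 47 are not the same genes as before, since Zfp532, Mcc and Mppe1 of chromosome 18 left the lower calls. The Y chromosome's median of 2.98 rests on 5 genes. Subtracting it put Kdm5d among the lower calls and took Eif2s3y, Uty and Uba1y out of the higher ones. The genes in common were not counted. No ratio changed sign among the called named genes under these settings, nor among the repeat families under other scalings and thinned counts. Named genes that were not called were not checked, and those near 0, such as Rbbp4 at -0.01, can change sign with the scaling. List medians that changed sign are given with their lists, and those of replication licensing and histone genes are given under the observations. The planned comparison of promoter CpG is void, since 103 of 147 called genes (70.1%) had a promoter in the table, under the 80% required, and its alternative threshold was not run. No paired analysis was possible because each genotype has 1 library. Depth limits genes under about 50 reads, where calls need ratios well over 2-fold.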

Other observations

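Several lists of common cell functions held no called gene. The 83 tested ribosomal protein genes had a median log2 ratio of 0.03 and the 24 mitosis genes 0.13, with Top2a at 0.02 (-0.02 to 0.05) and Ccnb1 at 0.21 (0.16 to 0.26). Replication licensing genes, 22 tested, had a median of 0.01 that became -0.03 when only the top transcript of a gene was counted. Heat shock and unfolded protein genes, 24 tested, had a median of 0.12, with the chaperone Hsp90aa1 at -0.21 (-0.23 to -0.20). Metallothionein and oxidative stress genes were below 0 in 18 of 21, with a median of -0.12 and the superoxide dismutase Sod1 at -0.23 (-0.28 to -0.18). Replication-dependent histone genes, 32 of 65 tested in polyadenylated RNA, had a median of 0.05, which turned negative at 5 CPM or more and with thinned counts. Of 39 Hox genes 4 were tested, with Hoxc13 at 1.21 (0.30 to 2.20) and a median of 0.85.

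A block of predicted multicopy genes at the start of chromosome 14, from 3049285 to 7568566 (GRCm38), had 0 of 18 tested genes above 0 and a median of -0.47, with none called and reads that its copies can share. Of the windows of neighbouring genes outside chromosome 18, the lowest is from this stretch. By transcript length, the fifth of genes with the longest transcripts had a median of -0.04 and the others between 0.01 and 0.02.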
